A study of Mus musculus with 55 samples.

Results

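A set of 10 genes subject to genomic imprinting were followed through maturation and stimulation of cultured mouse forebrain neurons: H19, Igf2, Meg3, Rian, Peg3, Dlk1, Cdkn1c, Plagl1, Ndn and Grb10. They were taken as a fixed list of 10 names, of which 9 had a row among the 28492 genes of one count table and the 28216 of the other. Dlk1 was not analysed here for want of a row. Where a gene had several transcripts, the one with the most counts stood for it. The list was chosen by hand with expression levels of these samples already known; it is not recorded which of them were used, and H19 heads it, so H19 is described below without a test and is left out of the counts of called genes.

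An imprinted gene is transcribed mainly from the copy inherited from one parent, under the control of regions whose DNA methylation was set in the egg or the sperm. Such genes lie in clusters that share a control region, and many act on growth in a dose-dependent way: several maternally expressed genes restrain growth and several paternally expressed ones promote it. In the brain some imprinted genes depart from this rule, with Grb10 read from the paternal copy in neurons and from the maternal copy elsewhere. The counts do not separate the parental copies, so all values below are totals over both.

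RNA came from primary cultures of cortex and hippocampus of CD1 mouse embryos of mixed sex, taken at embryonic day 16 to 17.5, and was read by CEL-Seq2, a method that counts the 3′ ends of polyadenylated transcripts. All 55 samples share this origin, and the labels name no transgene or mutation. In the maturation experiment (28 samples), cultures at 7 days in vitro (7DIV) and cultures that the labels give as 23 days in vitro and that are called 21DIV here, after the study, were left unstimulated (basal, 0 min, 3 samples per stage), depolarised with 55 mM KCl, or treated with 50 µM bicuculline, which blocks inhibitory GABA-A receptors, plus 2.5 mM 4-aminopyridine, which blocks potassium channels (Bic with 4-aminopyridine), for 15 or 180 min, with 3 samples per group except 2 for Bic with 4-aminopyridine at 21DIV at each time. In the stimuli experiment (27 samples, all at 21DIV), cultures were basal (3 samples), given 55 mM KCl or 50 µM bicuculline alone (Bic) for 15, 45 or 180 min (2 samples per group), silenced with 1 µM tetrodotoxin, a sodium channel blocker, for 48 h (basal TTX, 4 samples), or released from that silencing by washing it out (TTXw) for 15 min (3 samples), 45 min (2) or 180 min (3). No silencing preceded KCl or Bic, and TTXw samples were compared with the silenced cultures. The labels do not say that replicates came from separate dissections or animals, so p-values measure the spread between these samples, which may be technical.

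Between 1659722 and 14012872 counts fell on genes in a maturation sample and between 1177500 and 3909487 in a stimuli sample. Levels are given as CPM, each sample's counts scaled to a common total with TMM factors. A gene was called where edgeR's quasi-likelihood test gave a Benjamini-Hochberg adjusted p under 0.05 over all genes tested and the change was at least 1.5-fold. Stimuli were tested over all their times at once, and the change is quoted at the time where it was largest. All 12 neuronal markers passed the filter in both experiments, with a summed level of 9678 to 11043 CPM in 21DIV basal maturation samples. Glia were present as well, and their markers differed by stage: the 10 astrocyte markers summed to 516 to 773 CPM at 7DIV basal and 4421 to 5613 at 21DIV basal. In such bulk samples fewer cells of a type and less RNA per cell cannot be told apart.

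The 10 genes lie in 6 regions of the mouse genome (GRCm38), 2 of which hold 3 listed genes each. On distal chromosome 7 are H19 (chr7:142575530-142578146), a non-coding RNA of the maternal copy, Igf2 (chr7:142650768-142666816), a paternally expressed growth factor 72.6 kb away, and Cdkn1c (chr7:143458339-143461059), a maternally expressed inhibitor of cyclin-dependent kinases. On chromosome 12 are Dlk1 (chr12:109452485-109463336), which encodes a transmembrane protein of the Notch ligand family, and the non-coding RNAs Meg3 (chr12:109540996-109571729) and Rian (chr12:109603945-109661716). The other four stand apart: the zinc finger genes Peg3 (chr7:6703892-6730462) and Plagl1 (chr10:13090832-13131694), the MAGE family gene Ndn (chr7:62348277-62349928), and Grb10 (chr11:11930499-12037428), whose product is an adaptor that dampens insulin and IGF receptor signalling.

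Of these, 4 carry miRNA hairpins in RefSeq within their bounds: 1 each in H19, Igf2 and Meg3 and 3 in Rian. The poly(A)-based counts measure the host transcript and not the mature miRNAs. The pair from H19 is shown because H19 is the gene at the head of the list, with bases 2 to 8 (the seed, which pairs with targets) in capitals. The 5p arm lies at chr7:142577112-142577133 and the 3p arm at chr7:142577078-142577099, both on the minus strand, in exon 1 of the H19-202 and H19-205 transcripts. Their seeds differ from each other, and the pairs from Igf2 and Meg3 are shown for comparison of seeds; none of the 6 is shared.
miR-675-5p (H19): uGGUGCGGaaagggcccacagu
miR-675-3p (H19): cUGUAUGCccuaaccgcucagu
miR-483-5p (Igf2): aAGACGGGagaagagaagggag
miR-483-3p (Igf2): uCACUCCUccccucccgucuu
miR-770-5p (Meg3): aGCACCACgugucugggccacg
miR-770-3p (Meg3): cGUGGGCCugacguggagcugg

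Windows of the 250 bases upstream of a start were read from RefSeq for 8 of the genes (13 windows, GRCm38), with none for H19 and Cdkn1c. Both strands were searched for TGCCGC, the letters bound by ZFP57 when methylated, TGACGTCA, the full cAMP response element (CRE), and TGANTCA, the AP-1 site. The ZFP57 letters stood in 2 of 13 windows (8.68% of 32851 promoters hold them), the CRE in 2 (1.55% of promoters) and the AP-1 site in 0 (6.75%). The window of Plagl1 is shown because Plagl1 changed in most comparisons below, and that of Meg3 because it held both matches, which are in capitals (TGCCGC reads as GCGGCA on the printed strand). The Plagl1 window is chr10:13090582-13090831 on the plus strand and holds 19 CG pairs, and the Meg3 window is chr12:109540746-109540995 on the plus strand and holds 10, against a median of 6 over all promoters. A match is a description of the letters and no record of binding.
Plagl1: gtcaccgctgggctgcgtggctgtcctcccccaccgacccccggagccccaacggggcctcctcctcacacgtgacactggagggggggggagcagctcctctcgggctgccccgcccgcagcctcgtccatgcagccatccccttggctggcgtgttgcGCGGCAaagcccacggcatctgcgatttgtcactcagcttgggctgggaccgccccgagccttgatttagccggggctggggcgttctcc
Meg3: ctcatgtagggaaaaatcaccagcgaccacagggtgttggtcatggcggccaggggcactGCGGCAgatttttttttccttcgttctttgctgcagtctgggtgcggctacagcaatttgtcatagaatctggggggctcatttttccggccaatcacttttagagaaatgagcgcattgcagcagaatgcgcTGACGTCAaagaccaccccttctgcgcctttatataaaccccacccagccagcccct

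The listed genes spanned a wide range of levels, and the number of reads behind a value differed as much. Ndn stood highest, at 270 to 562 CPM over the maturation samples and 220 to 317 over the stimuli samples. Grb10 (39.3 to 170 and 67.4 to 245), Plagl1 (25.9 to 108 and 15.2 to 115) and Peg3 (32.7 to 117 and 47.7 to 115) were intermediate. Counts are of 3′ ends, so a gene's length enters little, yet priming and mapping differ by gene and the order between genes is a description. H19 ranged from 1.43 to 70.9 CPM in the maturation experiment and from 14.7 to 296 in the stimuli experiment. Cdkn1c covered 1.66 to 37.7 and 5.89 to 19.6 CPM.

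The remaining genes were near the limit of detection. Meg3 held 549 and 215 counts over all samples of the 2 experiments, Igf2 424 and 184, and Rian 42 and 11. Igf2 was at 0 in 4 of 28 and 3 of 27 samples. Rian was at 0 in 13 of 28 and 19 of 27 samples and did not pass the filter of more than 5 CPM in at least 2 samples in either experiment, so it was not tested. A difference in these genes was often not detectable at this depth. H19 reads could not be assigned to 1 of its 2 listed transcripts, which held equal counts in the maturation table.

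**Figure D1:**
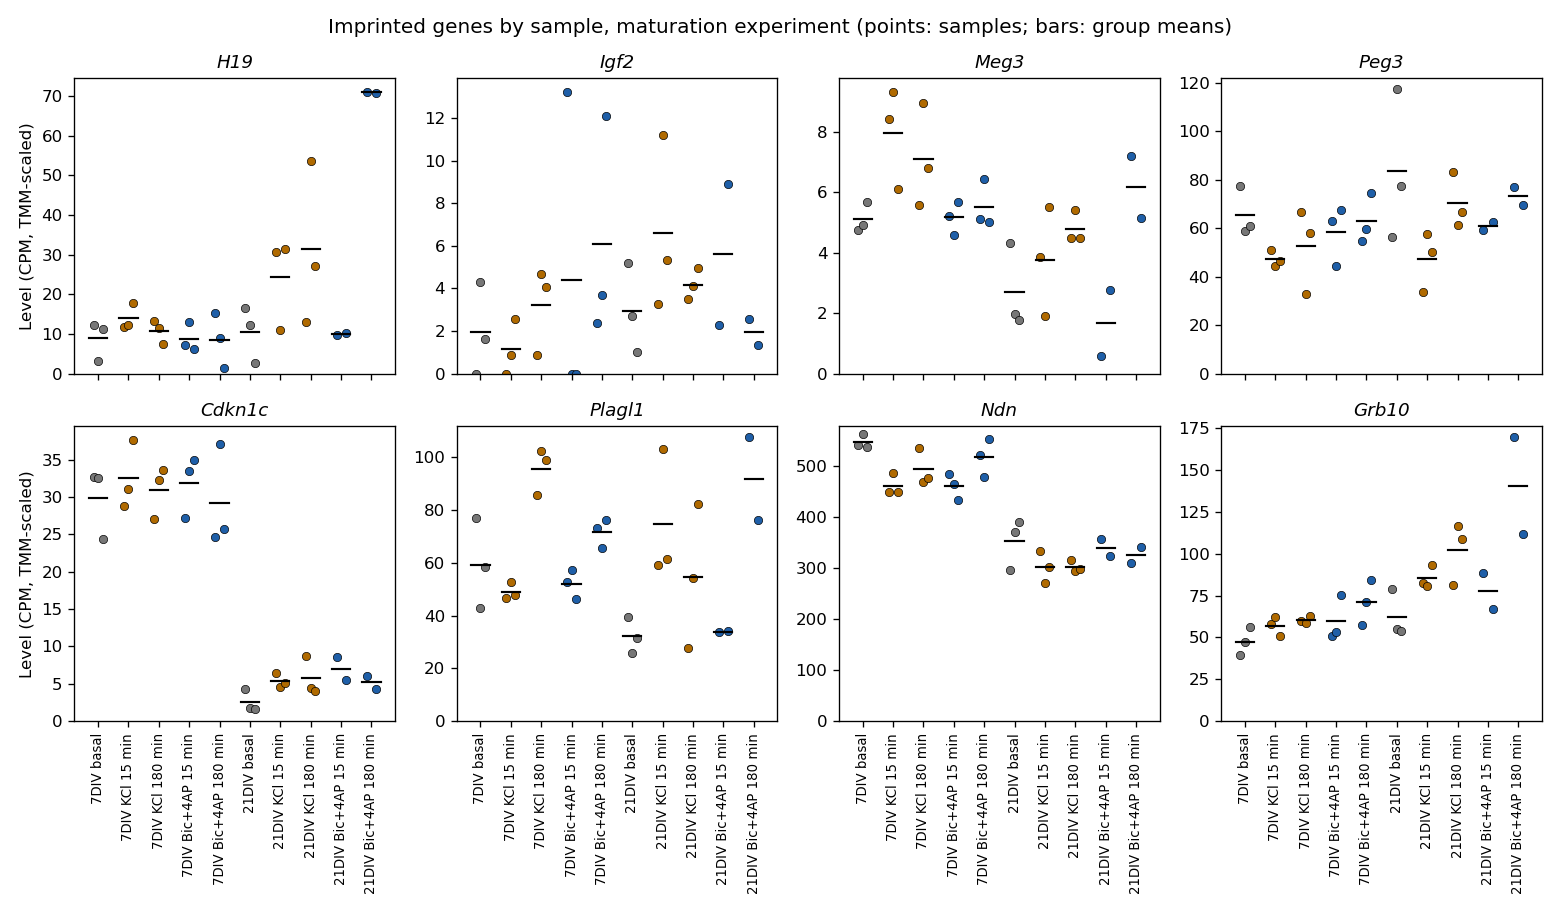
Level of 8 listed genes in the maturation experiment in CPM for each of 10 groups; points are samples, bars are group means, and grey, orange and blue mark basal, KCl and Bic with 4-aminopyridine. Cdkn1c sits between 24.4 and 37.7 CPM in all 15 samples at 7DIV and between 1.66 and 8.76 in all 13 at 21DIV.

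The first comparison asked how the genes differ between developing and mature unstimulated neurons. Cdkn1c, Plagl1 and Ndn were lower at 21DIV than at 7DIV, and Grb10 and Peg3 did not pass the test. Thus 3 of the 5 listed genes tested were called, all lower, against 33.1% of the 10510 genes tested (18.2% higher and 14.9% lower). The basal samples of the stages did not overlap for these 3 genes, as for 49.6% of all genes. The median log2 difference of the 5 genes was -0.60, against 0.01 over all genes. In this experiment the samples at 7DIV carry other letters in their library names than those at 21DIV (A or B against C, D or E, with 21DIV basal replicate 3 alone in D), so the stage and what the letters stand for cannot be told apart.

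Cdkn1c, which holds cells out of the cell cycle, had the widest gap. Its basal level was 32.7, 32.5 and 24.4 CPM in the 7DIV samples and 4.32, 1.79 and 1.66 CPM in the 21DIV samples (29.9 ± 4.75 against 2.59 ± 1.5, SD, n = 3 each). The groups did not overlap, and all 13 samples at 21DIV, stimulated or not, stayed under all 15 at 7DIV. The log2 difference was -3.51 ± 0.37 (SE), an 11.4-fold lower level (edgeR quasi-likelihood test, Benjamini-Hochberg adjusted p = 6.33e-06). The 21DIV basal values rest on 10 to 25 counts per sample.

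Plagl1, a transcription factor that restrains proliferation, stood at 76.7, 42.9 and 58.2 CPM at 7DIV and 39.4, 25.9 and 31.3 CPM at 21DIV. All 3 mature samples were under the lowest developing one (log2 difference -0.86 ± 0.23 SE, edgeR adjusted p = 0.00851). Ndn, which encodes the growth suppressor necdin of postmitotic neurons, went from 540, 562 and 536 CPM to 296, 371 and 390 CPM, again without overlap. Its difference of -0.60 ± 0.13 (SE) on the log2 scale lies at the 1.5-fold limit (edgeR adjusted p = 0.00214), and without 21DIV basal replicate 1 it was -0.49 and no longer reached that limit.

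The other genes overlapped between stages. H19 was at 12.3, 3.07 and 11.1 CPM at 7DIV and 16.6, 12.3 and 2.66 CPM at 21DIV, a log2 difference of 0.19 between groups that each span several-fold. Grb10 gave 39.3, 47.2 and 56.1 CPM against 78.7, 54.9 and 54.0 CPM (log2 difference 0.41, edgeR adjusted p = 0.125). Peg3 differed by 0.38 (edgeR adjusted p = 0.229).

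Neighbours of the listed genes were read from a list of 49 other imprinted genes, of which 34 were tested here. Of the 34, 5 were higher and 9 lower at 21DIV, against 18.2% and 14.9% of all genes. Magel2, a gene 27.1 kb from Ndn, fell with it, from a mean of 8.84 to 1.14 CPM (log2 difference -2.95, edgeR adjusted p = 0.00118). Snrpn, in the same imprinted domain but 1900 kb from Ndn, rose by 1.02 on the log2 scale (edgeR adjusted p = 2.73e-05), and its partner Snurf, read from the same mRNA, gave the same value. Rasgrf1, a Ras exchange factor of mature neurons, rose most (20.1 to 213 CPM on average, log2 difference 3.35, edgeR adjusted p = 2.70e-07), while Nnat (log2 difference -1.44) and Inpp5f (-1.43) fell. The median over the 34 was -0.12. The difference between stages came with 9 of 10 astrocyte markers and 7 of 7 tested oligodendrocyte markers higher at 21DIV, and the part of these cells in the results was not tested.

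**Figure D2:**
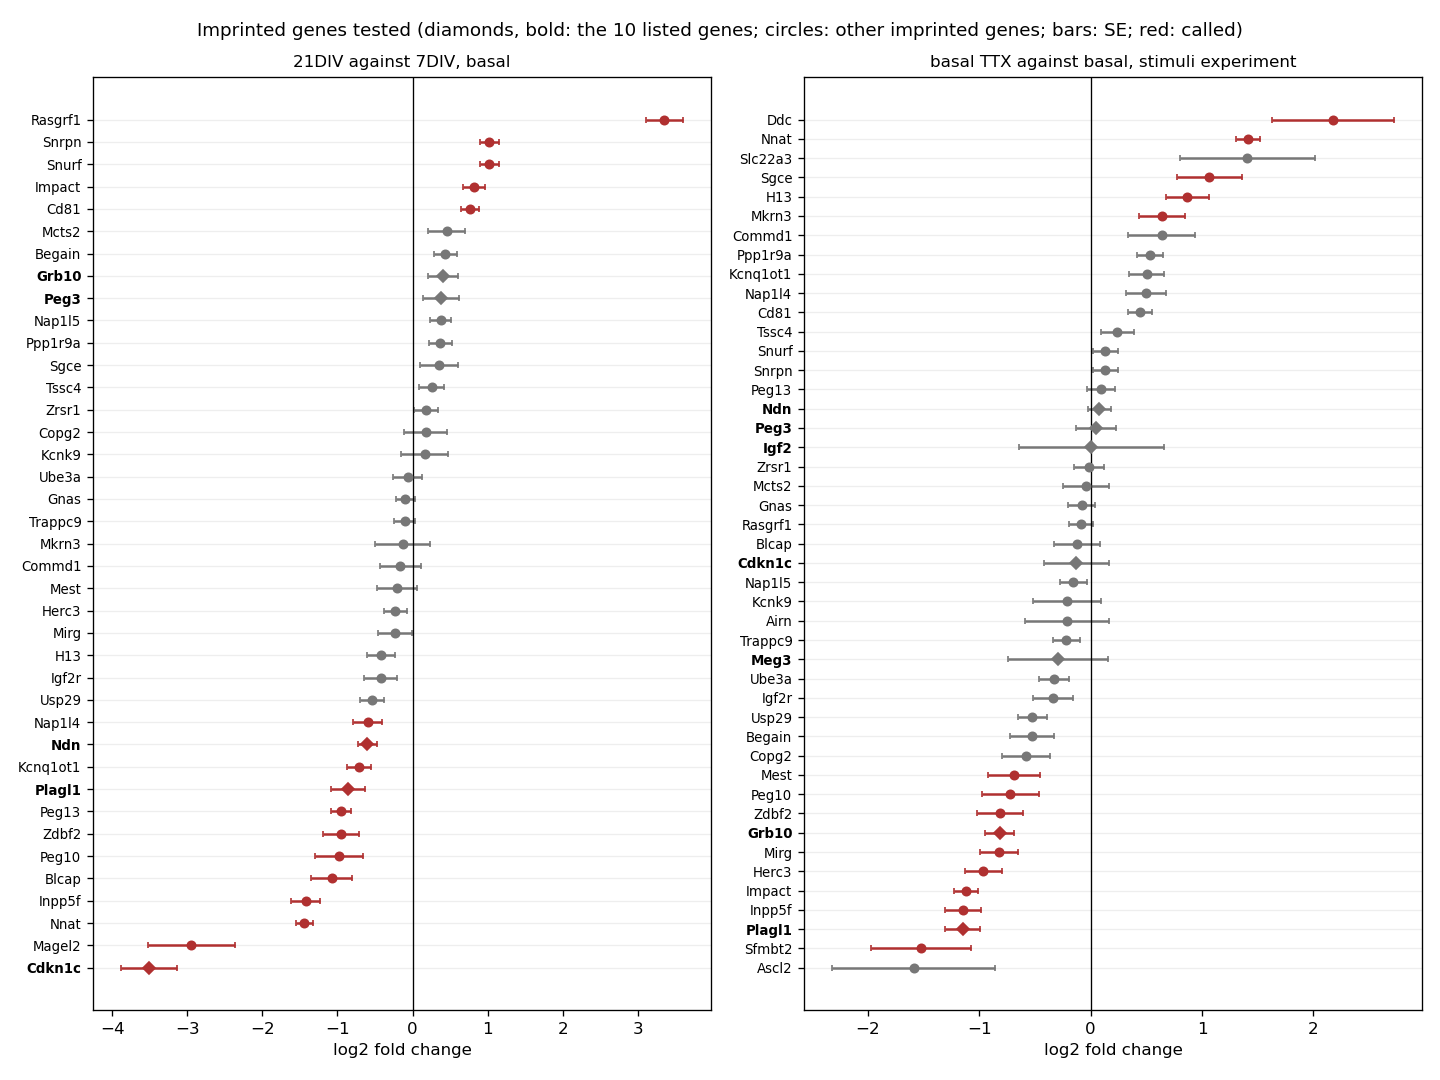
Log2 fold change with its standard error for each imprinted gene tested, in 21DIV against 7DIV basal samples (left) and in basal TTX against basal samples (right); diamonds with bold names are listed genes, circles other imprinted genes, and red marks called genes. Cdkn1c (-3.51) and Rasgrf1 (3.35) lie at the ends of the left panel, and Plagl1 and Grb10 are the listed genes in red on the right.

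The growth factor pathway that Igf2 and Grb10 act on was read from 21 genes of the IGF system, of which 12 were tested between stages. Of the 12, 3 were higher and 2 lower at 21DIV, against 18.2% and 14.9% of all genes. The binding proteins Igfbp4 (log2 difference 2.47), Igfbp2 (1.5) and Igfbp5 (0.87) rose. Irs1, an adaptor of the insulin and IGF1 receptors, fell by 1.10 on the log2 scale, and Igf2bp3, an RNA-binding protein that binds Igf2 mRNA, by 1.03. Of 14 regulators of imprinted loci, 10 were tested and 6 were lower, against 14.9% of all genes. Tet2 (-1.57), Tet3 (-0.95) and Ctcf (-0.93) were among the 6, and these names were chosen after their values were seen. Of 5 tested inhibitors of cyclin-dependent kinases other than Cdkn1c, 1 was called, against 33.1% of all genes. It was Cdkn1b, at -0.95, also named after its value was seen.

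At 7DIV, stimulation called none of the 7 listed genes tested. With KCl, 2.29% of 11746 genes were called and 0 listed genes, with 1 of the 7 under an unadjusted p of 0.05. That gene was Plagl1, at 76.7, 42.9 and 58.2 CPM in basal samples and 85.8, 102 and 98.7 CPM at 180 min, a log2 difference of 0.68 ± 0.26 (SE) without overlap (edgeR adjusted p = 0.0785), and it was called under the likelihood ratio tests of edgeR and DESeq2. With Bic and 4-aminopyridine, edgeR called 0.0% of all genes (by the likelihood ratio tests of edgeR and DESeq2 32 and 26 were called, and at an unadjusted p under 0.05 edgeR gave 846) and 0 listed genes (1 with an unadjusted p under 0.05; DESeq2 also called 0 listed genes). There the lowest unadjusted p was that of Grb10, whose values of 57.4, 71.2 and 84.6 CPM at 180 min stood above all basal values (log2 difference 0.57, edgeR adjusted p = 0.643). For Plagl1 and Grb10 the lack of overlap is a description. The share of all genes that separate at 180 min is not given. H19 stayed between 1.43 and 17.8 CPM in all 15 samples of this stage.

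At 21DIV, KCl called 4 of the 7 tested, 3 higher and 1 lower, against 7.65% of all genes (4.13% higher and 3.52% lower). The median log2 difference was 0.85 against -0.06 over all genes. This median is the value of Meg3, a gene near the limit of detection that was not called (edgeR adjusted p = 0.352). Bic with 4-aminopyridine called 3, all higher, against 12.3% of all genes (6.5% higher and 5.81% lower), with a median of 1.17 against -0.11. These medians take each gene at its time of largest change. At 15 and 180 min alone, those of the listed genes were 0.52 and 0.71 for KCl. For Bic with 4-aminopyridine they were 0.07 and 1.06. Over all genes these single-time medians lay from -0.02 to 0.00. The KCl and the Bic with 4-aminopyridine comparisons use the same 3 basal samples, so a high or low basal value enters both.

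H19 is given first, without a test. Its basal values of 16.6, 12.3 and 2.66 CPM were followed at 15 min of Bic with 4-aminopyridine by 9.71 and 10.3 CPM, inside the basal range. At 180 min both samples stood near 71 CPM (70.9 and 70.8 CPM, from 385 and 261 counts), above every other maturation sample. The log2 difference at 180 min was 2.79, or 6.90-fold. With KCl the values were 30.6, 11 and 31.3 CPM at 15 min and 13, 53.7 and 27.1 CPM at 180 min, overlapping the basal samples at both times, with a log2 difference of 1.61 at 180 min.

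Both samples of 180 min Bic with 4-aminopyridine carry a letter in their library names that no other maturation sample has, while the basal samples carry others, so the treatment and what the letter stands for cannot be told apart. In the same samples the astrocyte markers summed to 1676 to 3172 CPM, under the basal 4421 to 5613, and 3 of 10 were called lower. The neuronal markers also summed to less, 8935 to 9580 CPM against 9678 to 11043, as did the progenitor markers, 298 to 519 against 523 to 614. Oligodendrocyte markers (992 to 1595 against 2288 to 2979 CPM) and fibroblast markers (111 to 135 against 205 to 302) were lower too, with 3 of 8 and 2 of 5 tested called. Endothelial markers summed to 24.7 to 32.1 against 11.5 to 19.0 CPM, with the 1 tested called higher. The microglia markers summed to 28.2 to 28.5 CPM against 12.2 to 16.3 in basal samples, with 2 of 4 tested called higher and 2 of the 10 markers at 0 or absent. The part of these cells in the values of H19, Plagl1, Grb10 and Cdkn1c in these samples was not tested. With KCl the oligodendrocyte markers were at 1788 to 2041 CPM at 15 min and 1101 to 1596 at 180 min, under basal. The microglia markers were at 20.5 to 26.4 and 18.9 to 22.4, above basal. The neuronal markers were at 8747 to 9712 CPM at 15 min, overlapping basal, and at 8847 to 9412 at 180 min, under basal. At 180 min of KCl the progenitor markers were at 367 to 404 CPM, under basal. The part of all these cells in the KCl results below was not tested either.

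Plagl1 rose with both stimuli. From 39.4, 25.9 and 31.3 CPM it was at 59.3, 103 and 61.6 CPM after 15 min of KCl and 27.6, 54.0 and 82.4 CPM after 180 min. The early samples all lay above the basal ones and the late ones overlapped them. The log2 difference was 1.20 ± 0.26 (SE) at 15 min (edgeR adjusted p = 0.00810 over both times). With Bic and 4-aminopyridine the order in time was the other way: 33.7 and 34 CPM at 15 min, within the basal range, and 108 and 76.0 CPM at 180 min (log2 difference 1.51 ± 0.28 SE, edgeR adjusted p = 0.000411).

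Grb10 rose as well, most at 180 min in both cases. Its basal values of 78.7, 54.9 and 54.0 CPM compare with 82.5, 80.5 and 93.2 CPM at 15 min of KCl and 81.6, 117 and 109 CPM at 180 min, all above basal. The log2 difference was 0.71 ± 0.19 (SE) at 180 min (edgeR adjusted p = 0.0355). Bic with 4-aminopyridine gave 88.5 and 67.0 CPM at 15 min, overlapping basal, and 170 and 111 CPM at 180 min, a log2 difference of 1.17 ± 0.21 (SE; edgeR adjusted p = 0.000494). Without replicate 2 of that group the difference was 0.83 (edgeR adjusted p = 0.105), and that of Plagl1 was 1.23 (edgeR adjusted p = 0.0633).

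Cdkn1c moved from its low basal level of 4.32, 1.79 and 1.66 CPM to 6.39, 4.53 and 5.16 CPM at 15 min of KCl and 8.76, 4.47 and 4.01 CPM at 180 min. The earlier samples stood clear of basal and the later ones overlapped it (log2 difference 1.19 ± 0.34 SE at 180 min, edgeR adjusted p = 0.0321). With Bic and 4-aminopyridine it was at 8.57 and 5.50 CPM at 15 min and 6.08 and 4.34 CPM at 180 min. The test over both times called it (log2 difference 1.42 at 15 min, edgeR adjusted p = 0.0296) but neither time did alone. Every one of these values stayed under the 7DIV samples. The calls rested on single samples. Without basal replicate 2 or 3 the KCl difference was 1.02 or 0.91 and did not pass (edgeR adjusted p = 0.177 and 0.252), and those of Grb10 (0.63 and 0.62) did not pass either. Cdkn1c also missed without 15 min replicate 1 of KCl (1.19, edgeR adjusted p = 0.0634), and Grb10 without 180 min replicate 2 or 3 (0.61 and 0.68). Plagl1 with KCl was 1.07 without basal replicate 2 (edgeR adjusted p = 0.0600). Cdkn1c with Bic and 4-aminopyridine did not pass without basal replicate 2 or 3, 15 min replicate 1 or 180 min replicate 2 (1.11 to 1.42, edgeR adjusted p = 0.0915 to 0.171), nor on thinned counts or in the compared groups alone (edgeR adjusted p = 0.145 and 0.206).

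Peg3, a zinc finger protein linked to cell death pathways, was the 1 listed gene that fell, with KCl at 15 min. Its values were 56.2, 117 and 77.3 CPM in basal samples and 33.8, 57.7 and 50.0 CPM at 15 min, which overlap (log2 difference -0.84 ± 0.23 SE, edgeR adjusted p = 0.0432). Basal replicate 2 is the high one, and without it the difference was -0.53 and did not pass (edgeR adjusted p = 0.162), nor did it without basal replicate 3, 15 min replicate 1 or 3 or 180 min replicate 3 (-0.91 to -0.65). At 180 min it was at 82.9, 61.1 and 66.8 CPM, within the basal range. Ndn kept to 270 to 390 CPM in all 13 samples at 21DIV and was not called with either stimulus.

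Meg3 stood at 4.32, 1.97 and 1.77 CPM in basal samples and at 7.18 and 5.15 CPM after 180 min of Bic with 4-aminopyridine, from 39 and 19 counts. Both stimulated samples were above basal, and the difference of 1.22 ± 0.45 (SE) on the log2 scale did not pass (edgeR adjusted p = 0.0535), though it did without basal replicate 1 (1.71, edgeR adjusted p = 0.0152), on counts summed over transcripts (edgeR adjusted p = 0.0401) and under the likelihood ratio tests of edgeR and DESeq2 (adjusted p = 0.0144 and 0.0304). Igf2, at 5.19, 2.68 and 1.00 CPM in basal samples and 2.58 and 1.36 CPM in those at 180 min, showed no difference detectable at this depth.

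**Figure D3:**
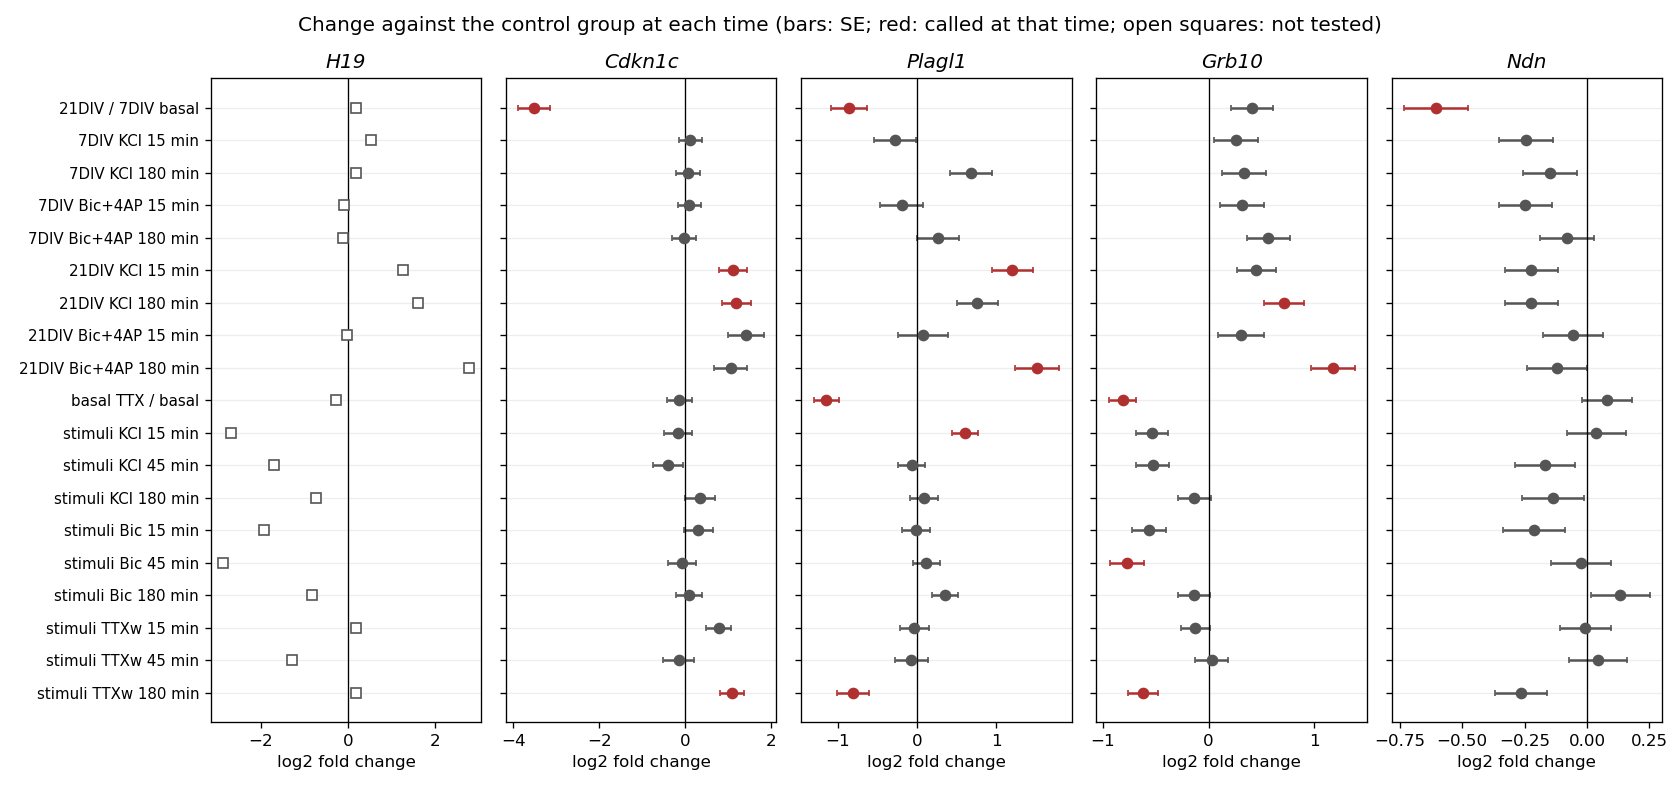
Log2 fold change with its standard error against the control of each comparison at each time for H19, Cdkn1c, Plagl1, Grb10 and Ndn; red marks a change called at that time and open squares mark H19, which was not tested and has no error bar. H19 reaches 2.79 at 180 min of Bic with 4-aminopyridine at 21DIV and lies below 0 at all times of KCl and Bic in the stimuli experiment.

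Read at each time alone, KCl at 21DIV called 3 of 7 listed genes at 15 min, against 6.23% of all genes, and 2 at 180 min, against 4.89%. Bic with 4-aminopyridine called 0 at 15 min, against 0.0511%, and 2 at 180 min, against 14.2%. In the stimuli experiment 1 of 7 was called at 15 min of KCl (7.22% of all genes), 1 at 45 min of Bic (7.45%) and 3 at 180 min of TTXw (14%).

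Whether a stimulus acted differently at the 2 stages was tested as an interaction, called by its adjusted p alone. For KCl, 1 of 7 listed genes was called, Plagl1, against 2.06% of all genes. Its change at 15 min was larger at 21DIV by 1.48 ± 0.37 (SE) on the log2 scale (edgeR adjusted p = 0.0310): the 7DIV samples at that time, 46.5, 52.6 and 47.8 CPM, lay within their basal range. It did not pass without 7DIV basal replicate 2 (1.26), any 1 of the 3 samples of 7DIV at 15 min (1.44 to 1.54), 21DIV basal replicate 2 or 3 (1.34 and 1.45) or 21DIV 15 min replicate 2 (1.18, the lowest, with an edgeR adjusted p of 0.114).

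For Bic with 4-aminopyridine, 0 of 7 were called over both times, against 4.17% of all genes, with 2 under an unadjusted p of 0.05 and 0 called by the likelihood ratio tests. Without 21DIV basal replicate 1 the change of Cdkn1c differed between stages by 1.86 (edgeR adjusted p = 0.0290), and by 1.67 with KCl (edgeR adjusted p = 0.0435). H19, again without a test, was at 15.4, 8.90 and 1.43 CPM at 180 min of Bic with 4-aminopyridine at 7DIV, across its whole basal range there, so that its changes at the 2 stages differed by 2.90 on the log2 scale.

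Among the other imprinted genes, 37 were tested with these stimuli. At 7DIV, KCl raised 2, Zdbf2 (log2 difference 1.26) and Zrsr1 (0.83), and Bic with 4-aminopyridine called 0. Over all genes these stimuli called 2.29% and 0.0% at that stage. At 21DIV, KCl called 1, against 7.65% of all genes. It was the potassium channel gene Kcnk9, lower by 1.83 on the log2 scale. Bic with 4-aminopyridine called 11, against 12.3% of all genes. Of the 11, 7 were higher, 3 were lower and 1, Ascl2, had no single direction over both times. Mest (log2 difference 1.35) and the retrotransposon-derived Peg10 (1.36) rose, and Kcnk9 (-1.77) and Begain (-1.03) fell. Kcnq1, 31.3 kb from Cdkn1c, rose from 3, 0 and 6 counts in basal samples to 45 and 31 counts at 180 min. Ascl2 went from 4, 0 and 13 counts in basal samples, to 0 in both samples at 15 min and to 24 and 43 counts at 180 min, and no fold is given for it.

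By stage, KCl called 3 other imprinted genes, against 2.06% of all genes. All had a lower change at 21DIV: Kcnk9 (difference -2.11), Snrpn (-0.85) and Snurf, with the reads of Snrpn. Bic with 4-aminopyridine called 5, against 4.17% of all genes. The change at 21DIV was higher for Igf2r (1.27), the receptor that clears IGF2, Zdbf2 (1.19) and Impact (0.89). It was lower for Begain (-0.99) and Nnat (-0.67). Igf2r was itself higher with Bic and 4-aminopyridine at 21DIV (0.80), along with Irs2 (1.54), an adaptor of the insulin and IGF1 receptors, while Igfbp4 fell by 1.03 on the log2 scale. Of the 13 IGF system genes tested, these 3 were called, against 12.3% of all genes. Irs2 was the 1 called with KCl at 7DIV (1.43), against 2.29% of all genes. Cdkn1a, the activity-responsive relative of Cdkn1c, rose at 21DIV with KCl (1.54) and with Bic and 4-aminopyridine (1.76), and is named after its values were seen.

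**Figure D4:**
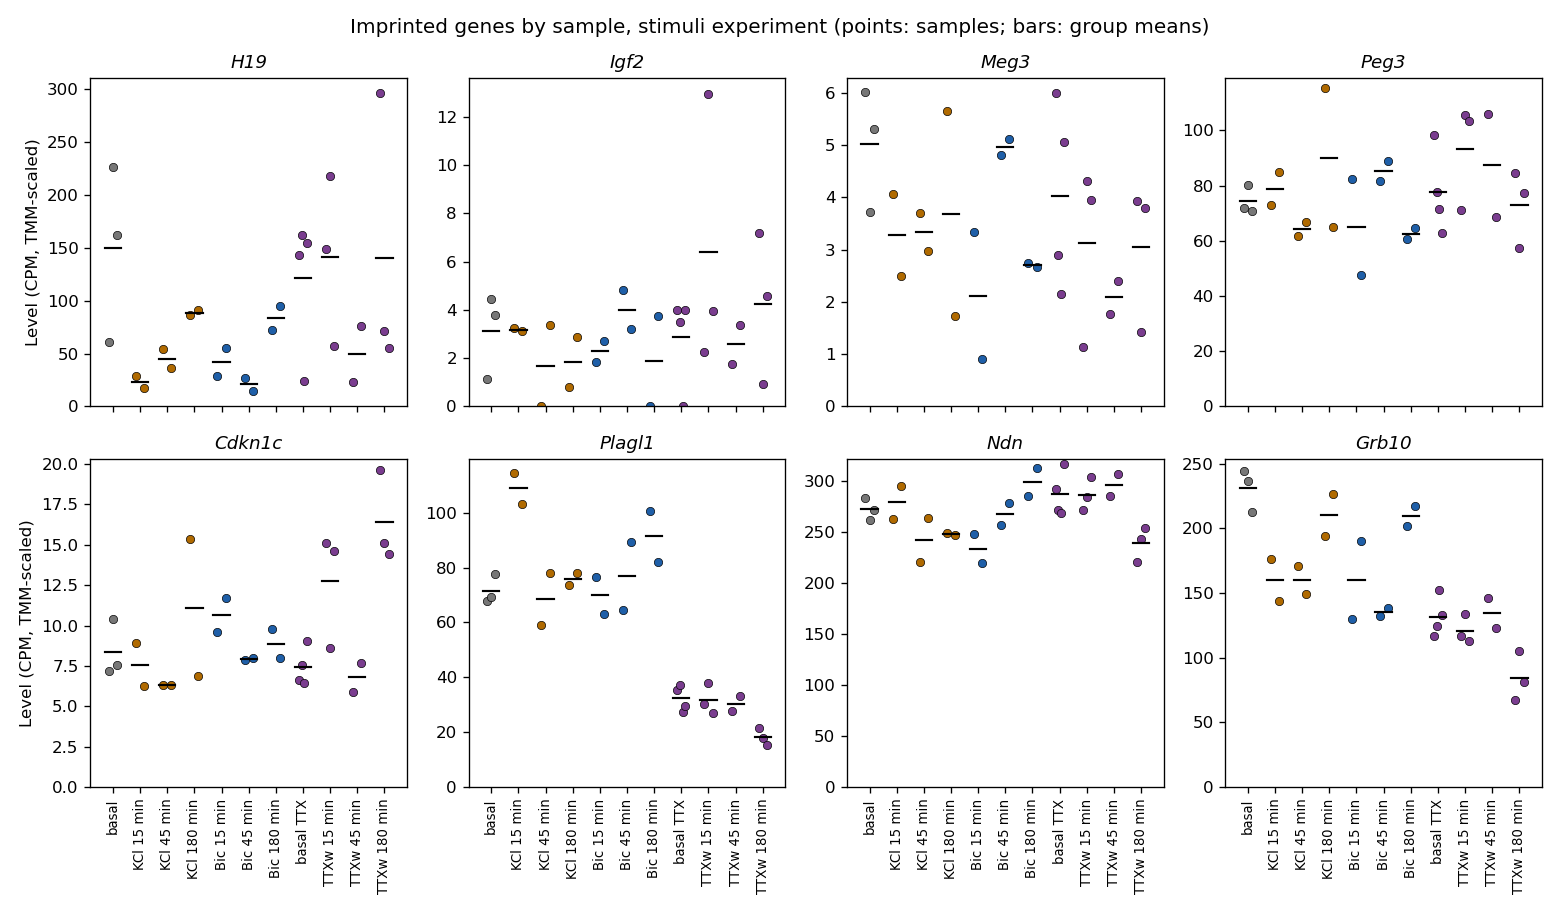
Level of 8 listed genes in the stimuli experiment in CPM for each of 11 groups, all at 21DIV; points are samples, bars are group means, and grey, orange, blue and purple mark basal, KCl, Bic and the TTX arm. Plagl1 lies between 15.2 and 38.1 CPM in the 12 samples of the TTX arm and between 58.9 and 115 CPM in the 15 others.

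The stimuli experiment first asked what 48 h of silencing does. In basal TTX samples Plagl1 and Grb10 were lower than in basal samples and Cdkn1c, Ndn, Peg3, Meg3 and Igf2 did not pass. These are 2 of the 7 listed genes tested, both lower, against 21.6% of 12027 genes (10.8% higher and 10.8% lower), and the samples did not overlap for either, as for 35.2% of all genes. The median log2 difference of the 7 genes was -0.13, against 0.00 over all genes.

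Plagl1 fell from 67.9, 69.2 and 77.7 CPM to 35.3, 37.2, 27.2 and 29.7 CPM with silencing. The log2 difference was -1.15 ± 0.16 (SE), and no silenced sample came near a basal one (edgeR adjusted p = 2.82e-07). Grb10 fell from 245, 237 and 212 CPM to 117, 124, 152 and 133 CPM (log2 difference -0.82 ± 0.13 SE, edgeR adjusted p = 4.63e-06), again without overlap. Neither call was lost in any of the 7 fits that left out 1 sample.

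The silenced cultures differed in cell markers too. Astrocyte markers summed to 7034 to 8187 CPM against 2476 to 3031 in basal samples, with all 10 called higher. Oligodendrocyte markers (6 of 8 tested higher) and fibroblast markers (4 of 7 tested higher) stood above basal as well, and neuronal markers summed to 7957 to 9067 CPM against 10411 to 10908, with 3 of 12 lower. The log2 ratio of Xist to Y-linked counts, a readout of the sexes in these mixed mouse litters, was 1.29 to 2.21 in the 12 samples of the TTX arm and 0.45 to 1.23 in the other 15, without overlap. The part of these differences in the results for Plagl1 and Grb10 was not tested.

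Washing out TTX called 3 of the 7 listed genes tested, 1 higher and 2 lower, against 13.2% of all genes (6.78% higher and 6.45% lower). All 3 changes were at 180 min. Cdkn1c rose from 6.65, 7.55, 6.44 and 9.04 CPM in silenced cultures to 19.6, 15.1 and 14.4 CPM, without overlap (log2 difference 1.10 ± 0.29 SE, edgeR adjusted p = 0.00574). Its values at 15 min were 15.1, 8.62 and 14.6 CPM, of which 1 lay within the silenced range. Plagl1 fell further, to 21.6, 18 and 15.2 CPM (log2 difference -0.81 ± 0.20 SE, edgeR adjusted p = 0.0130), and Grb10 to 67.4, 105 and 81.2 CPM (-0.62 ± 0.15 SE, edgeR adjusted p = 0.00613).

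Removal of TTXw 180 min replicate 1 (-0.49, edgeR adjusted p = 0.0860) or of basal TTX replicate 3 (-0.55, under 1.5-fold) ended the call of Grb10, and removal of replicate 2 or 3 that of Plagl1 (-0.80 and -0.72, edgeR adjusted p = 0.0975 and 0.0930). In the same 3 samples the neuronal markers summed to 4878 to 5876 CPM, with 7 of 12 lower, and the astrocyte markers to 10476 to 14906 CPM. Their part in these changes was not tested.

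KCl and Bic were compared with the 3 basal samples they share. KCl called 1 of 7 listed genes, against 6.04% of all genes, and Bic called 1, against 6.63%. Plagl1 rose with KCl at 15 min, to 115 and 103 CPM from 67.9, 69.2 and 77.7 CPM, by 0.60 ± 0.16 (SE) on the log2 scale (edgeR adjusted p = 0.0284). Removal of basal replicate 1 or 2 or of either stimulated sample ended the call (0.56 to 0.71, edgeR adjusted p = 0.0475 to 0.256). At 45 and 180 min its differences were -0.07 and 0.09. With Bic it was at most 0.35 above basal, at 180 min, and was not called (edgeR adjusted p = 0.416).

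Grb10 fell with Bic. From basal values of 245, 237 and 212 CPM it was at 130 and 190 CPM at 15 min, 132 and 138 CPM at 45 min and 202 and 217 CPM at 180 min. The first 2 times lay wholly under basal and the last overlapped it, and the log2 difference at 45 min was -0.77 ± 0.16 (SE, edgeR adjusted p = 0.00192). With KCl the values were 176 and 144, 171 and 149, and 194 and 227 CPM at 15, 45 and 180 min. The difference of -0.54 at 15 min had an edgeR adjusted p of 0.0283 and was under 1.5-fold, which it passed without basal replicate 5 (-0.59) or 15 min replicate 1 (-0.65). So Grb10 was lower here after Bic, whereas after 180 min of Bic with 4-aminopyridine it was higher in the maturation experiment; the agents, the times and the basal levels (54.0 to 78.7 CPM there) differ, and the difference between experiments was not tested.

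In the stimuli experiment all 15 and 45 min samples of KCl and Bic carry 1 library letter, with basal replicate 5, and the rest carry another. Within the shared letter, Grb10 was at 212 CPM in the basal sample and at 130 to 190 CPM in the 8 stimulated ones, and Plagl1 at 77.7 CPM and at 58.9 to 115 CPM. With the letter as a term in the fit the changes were -0.65 for Grb10 with Bic (edgeR adjusted p = 0.183) and 0.48 for Plagl1 with KCl (edgeR adjusted p = 0.0969). In these 8 samples the astrocyte markers summed to 4171 to 5658 CPM, above the basal 2476 to 3031. The neuronal markers were above basal too, at 11447 to 12670 CPM against 10411 to 10908, as were the fibroblast markers, at 257 to 398 against 166 to 255. The part of these cells was not tested.

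H19 in this experiment varied widely. Basal samples held 61.0, 226 and 162 CPM. KCl samples held 28.8 and 17.8 CPM at 15 min, 54.1 and 36.4 CPM at 45 min and 86.4 and 91.2 CPM at 180 min. Bic samples held 28.9 and 54.9, 27.1 and 14.7, and 72.4 and 95.4 CPM at those times. All 8 samples at 15 and 45 min lay under the lowest basal one, and those at 180 min lay within the basal range. The log2 differences were -2.69, -1.71 and -0.74 for KCl and -1.93, -2.87 and -0.82 for Bic. H19 may have been listed for these levels, and the share of all genes placed in this way is not given. The placing is thus a description.

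Within the shared library letter the basal sample held 162 CPM of H19 and the 8 stimulated ones 14.7 to 54.9. In the TTX arm the silenced samples held 144, 162, 23.6 and 155 CPM, and TTXw samples 149, 218 and 57.4 CPM at 15 min, 23.0 and 76.5 CPM at 45 min and 296, 71.0 and 55.4 CPM at 180 min. Replicates of a group differed there by as much as groups did. Ordered by mean level, 1 of 10 neighbouring group pairs did not overlap.

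The H19 levels also differed between experiments: the 3 basal samples at 21DIV held 2.66 to 16.6 CPM in the maturation experiment and 61.0 to 226 CPM in the stimuli experiment. The tables were scaled separately and the cultures differ, so no test was made. Grb10 (54.0 to 78.7 against 212 to 245 CPM), Plagl1 (25.9 to 39.4 against 67.9 to 77.7) and Cdkn1c (1.66 to 4.32 against 7.16 to 10.4) were also higher in the stimuli experiment without overlap. Ndn was lower there, at 296 to 390 against 262 to 283 CPM, and Igf2, Meg3 and Peg3 overlapped. The share of all genes that separate between the experiments was not counted, so this is no finding about the listed genes.

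The genes whose log2 CPM ran most like that of H19 were, over the 28 maturation samples, Pate14 (Pearson r = 0.78), the lysosomal macrophage gene Cd68 (0.78) and Tpgs2 (0.77), and over the 27 stimuli samples the p53 target Ccng1 (0.84), the small GTPase gene Rras (0.81) and Inca1 (0.79). Within groups these coefficients were 0.39 to 0.62 and 0.63 to 0.73. Its neighbour Igf2 had r = -0.06 and 0.37 over the same samples, and -0.24 and 0.62 within groups. Igf2 held only 424 and 184 counts over these samples, and basal TTX replicate 3 was low for both genes. Among the other listed genes, Cdkn1c and Ndn had r = 0.82 over the maturation samples but -0.34 within groups, and Plagl1 and Grb10 0.74 over the stimuli samples but -0.35 within groups. These are descriptions over samples that share groups and libraries.

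Other imprinted genes also moved in the stimuli experiment, where 38 were tested. Silencing raised 5 and lowered 8, against 10.8% of all genes each way. Ddc (log2 difference 2.17), which lies 32.4 kb from Grb10, Nnat (1.41) and Sgce (1.06) were among the higher. Sfmbt2 (-1.52), Inpp5f (-1.15) and Impact (-1.12) were among the lower. TTXw raised 2 and lowered 8, against 6.78% and 6.45% of all genes. Mest (1.31) and Kcnq1ot1 (0.94), the antisense RNA of the Cdkn1c cluster, rose. Peg13 (-1.04), Herc3 (-0.94) and Peg10 (-0.86) came first among the lower. KCl raised Mest (1.29) and Nnat (0.90) and lowered Mirg (-0.84), a microRNA host 73.3 kb from Rian. Bic raised Mest (1.29) and Nnat (1.06). Over all genes KCl called 6.04% and Bic 6.63%. The strand setting of the counting is not stated, so the reads of Kcnq1 and its antisense partner Kcnq1ot1 cannot be told apart where they overlap.

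Of the IGF system, 14 genes were tested in this experiment. Silencing raised the binding proteins Igfbp5 (1.29), Igfbp7 (1.06) and Igfbp4 (0.84) and lowered Stc1 (-0.99), an inhibitor of the protease PAPP-A. TTXw raised Stc1 (0.86) and Igfbp2 (0.67). KCl raised Igfbp4 (0.62) and Bic raised Irs2 (1.28). The shares of all genes called were 21.6% for silencing, 13.2% for TTXw, 6.04% for KCl and 6.63% for Bic. How many IGF system genes were called is not given here, so the names do not show whether the list exceeds these shares. Only the called genes with the largest changes were named, and silencing may have raised others. In each of these comparisons Igf2 itself did not pass, at 0.00 to 12.9 CPM over the 27 samples.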

How the data were processed

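The authors deposited counts per transcript in 1 table per experiment, made from CEL-Seq2 libraries aligned with STAR to mm10, per the labels and the study's methods. Whether molecular identifiers were collapsed, and the strand setting, is not given in the sources used here. RefSeq transcripts were matched to symbols (80.8% and 80.9% of transcripts; unmatched ones held 18.5% and 19.2% of counts), and each gene took its transcript with the most counts. Genes over 5 CPM in at least 2 samples were fitted with edgeR 4.0.16 (R 4.3.3; TMM, quasi-likelihood F test, Benjamini-Hochberg adjustment) in 1 model per experiment, with separate fits of the 6 basal maturation samples. Alternatives were likelihood ratio tests in edgeR and DESeq2 1.42.0, other size factors or none, other filters on low counts, and thinned or summed counts. Further ones were the compared groups alone, a replicate block, the library letter as a term (stimuli experiment only), and leaving out each sample. Where leaving out a sample left 1 in a group, that group was assumed to vary like the others. Figures used Python 3.11.15 and matplotlib 3.10.9. Calls needed an adjusted p under 0.05 and 1.5-fold, or the adjusted p alone for interactions.

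On simulated counts, 58.3% of 2-fold and 98.0% of 4-fold changes were recovered between stages. The shares were 62.8% and 93.0% for KCl at 21DIV, and 76.3% and 96.9% for KCl in the stimuli experiment. These sets held 10164, 11286 and 11572 genes, totals that include genes left unchanged. Recovery of a change present at a single time of a stimulus was not tested. Replicates differed beyond sampling noise in all 48 pairs (chi-square per degree of freedom 2.08 to 18.0). Same-numbered samples did not deviate together (mean r = -0.01 and 0.00, with 1 of 48 and 1 of 96 pairs over 0.1), so the numbers were not taken as pairing.

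Named were all listed genes, up to 3 genes each way of the other imprinted and IGF lists per comparison with the largest change among those called, and the 3 genes most correlated with H19. The listed genes and lists were chosen with earlier results of these data known. H19 was to be counted in the maturation comparisons, and was left out since the list may have been chosen for its levels. The counts there thus leave out a gene that was planned for them. Promoter and miRNA sequences are RefSeq's for GRCm38.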

Additional observations from a re-analysis of the deposited data

Results flagged for a closer look

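Among the 4 basal TTX samples, H19 was at 23.6 CPM in replicate 3, far under the 144 to 162 CPM of the other 3, and Igf2 was at 0.0 CPM in the same library, away from the rest. Of 8 listed genes checked in this group these were 2, both from that 1 library, so they are not separate; chance flags about 1 in 20. Igf2 held only 0 to 11 counts per sample in this group, so its 0 is a value at the floor. Without replicate 3 the log2 difference of H19 between basal TTX and basal samples was 0.05 in place of -0.27.

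The change of Plagl1 with KCl differed between stages by 1.48 on the log2 scale, over both times together and at 15 min alone. The difference was tested as an interaction with edgeR, as given above.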

How the results depend on the processing

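The number of listed genes called was 3 between stages and 2 with silencing in all fits that left out 1 sample, although without 21DIV basal replicate 1 Peg3 (0.60) took the place of Ndn. With KCl at 7DIV the number of listed genes called went from 0 to 1 (Plagl1) under the likelihood ratio tests of edgeR and DESeq2, without the filter, on thinned counts and in the compared groups alone. With KCl at 21DIV it went from 4 to 1 on counts summed over transcripts and on thinned counts and to 0 in the compared groups alone. The KCl difference by stage went from 1 to 0 on summed counts and in the compared groups alone, and that of Bic with 4-aminopyridine from 0 to 1 without the filter and in the compared groups alone. In the stimuli experiment KCl went from 1 to 0 on summed counts, on thinned counts and with the library letter as a term, and Bic from 1 to 0 with the letter. The causes were not tested. Leaving out 1 sample gave 0 to 4 genes for KCl at 21DIV, 0 to 4 for Bic with 4-aminopyridine at 21DIV, 0 to 2 for the KCl difference by stage, 0 to 1 for that of Bic with 4-aminopyridine, 0 to 0 for each stimulus at 7DIV, 2 to 3 for TTXw, 0 to 2 for KCl and 1 to 1 for Bic. The lowest counts came without 21DIV basal replicate 2 (KCl) and without 180 min replicate 2 (Bic with 4-aminopyridine). Meg3 with Bic and 4-aminopyridine at 21DIV ranged from -2.15 to 1.71, with -2.15 without the 15 min replicate 2, where the lone sample had 1 count. Ndn between stages was -0.57 on thinned counts, under 1.5-fold. Library totals without TMM factors, an alternative chosen after seeing the data, ended the calls of Peg3 with KCl at 21DIV (-0.80), Plagl1 with KCl (0.52) and Grb10 with TTXw (-0.58). A replicate block took the KCl difference by stage from 1 to 0 (Plagl1 1.39, edgeR adjusted p = 0.0637) and ended the calls of Ndn between stages (-0.51) and Peg3 with KCl at 21DIV (-0.84); the numbers mark no known pairing. Depth limits Igf2, Meg3 and Rian throughout, and Cdkn1c at 21DIV.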
